A study of Mus musculus with 16 samples.

Results

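Clusters of ATRX-dependent heterochromatin nanodomains (HNDs) were selected on the positions of the HNDs in mouse embryonic stem cells (ESCs). An ATRX-dependent HND is a stretch called as an H3K9me3 peak in WT cells and not in *Atrx* KO cells. HNDs of chromosomes 1 to 19 were sorted by start, and neighbours were chained where the gap, from the end of an HND to the start of the next, was 10000 bp or less. Chains of 3 or more HNDs were kept. This gave 145 chains with 459 members, out of 11899 autosomal HNDs and 13113 HNDs in the whole list. Membership thus rests on the WT and KO peak calls and on their spacing, and the number, gap and span of chains are descriptions without a test. At the limit, the largest gap kept was 9992 bp and the smallest gap left out was 10034 bp.

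ATRX is a chromatin remodeller that works with the histone chaperone DAXX to deposit the variant histone H3.3 at repetitive DNA. H3K9me3 is laid down by methyltransferases such as SETDB1 and SUV39H and is read by HP1 proteins, which compact the chromatin. In ESCs the mark is known for silencing transposable elements, telomeres, pericentromeric satellites and imprinted alleles.

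ChIP-seq of H3K9me3, histone H3 and a control IgG, with input DNA beside them, was done in the WT line wt26 and in cells lacking ATRX, in 2 libraries per kind and genotype and 16 in all. Both genotypes were cultured on gelatine with LIF and received no further treatment. The methods name the KO lines KO1-40 and KO1-45, and the sample labels do not tell which KO library came from which line. The deposited outcome was 1 pooled list of positions on mm9 without heights, counts or values per replicate, so no spread between replicates and no depth of a single HND can be given, and every interval below is a 95% Wilson interval for counting error only.

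Sequences from mm9, plus strand, show the kinds of relation found between chain members. The first pair comes from the chain with the longest span, in an intron of *St3gal4*, a sialyltransferase gene on the minus strand of chromosome 9. Its members 2 and 3 are made of tandem units, and the same part of a unit is shown from chr9:34879519-34879698 and chr9:34888175-34888354, with CCCTAA and TTAGGG, the telomere-type hexamer read on either strand, in capitals.
St3gal4 chain, member 2: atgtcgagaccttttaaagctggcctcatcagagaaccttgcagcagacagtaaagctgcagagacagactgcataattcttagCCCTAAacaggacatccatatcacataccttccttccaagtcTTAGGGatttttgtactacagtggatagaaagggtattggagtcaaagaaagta
St3gal4 chain, member 3: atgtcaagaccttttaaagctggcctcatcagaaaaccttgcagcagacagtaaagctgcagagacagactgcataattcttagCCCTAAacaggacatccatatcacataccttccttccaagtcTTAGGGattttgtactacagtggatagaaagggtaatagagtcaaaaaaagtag

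A chain on chromosome 7, intergenic and 23584 bp from *Gm9343*, was shown because its 4 members overlap 3 copies of the same stretch. Members 1 and 2 lie in a copy each, member 3, which is 15 bp wide, lies in the third, and member 4 starts in the third and runs past its end. Capitals mark 80 bases at the start of an exact match of 2706 bases, after 40 bases that precede it, at chr7:58221054-58221173, chr7:58229805-58229924 and chr7:58238557-58238676. These windows lie upstream of the members themselves, inside the duplicated sequence.
Chromosome 7 chain, copy at member 1: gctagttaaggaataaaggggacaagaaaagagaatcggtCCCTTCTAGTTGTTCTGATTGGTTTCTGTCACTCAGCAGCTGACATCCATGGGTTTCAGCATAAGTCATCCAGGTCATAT
Chromosome 7 chain, copy at member 2: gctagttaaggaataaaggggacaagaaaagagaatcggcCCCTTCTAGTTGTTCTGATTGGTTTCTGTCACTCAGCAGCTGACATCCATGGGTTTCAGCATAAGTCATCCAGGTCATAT
Chromosome 7 chain, copy at member 4: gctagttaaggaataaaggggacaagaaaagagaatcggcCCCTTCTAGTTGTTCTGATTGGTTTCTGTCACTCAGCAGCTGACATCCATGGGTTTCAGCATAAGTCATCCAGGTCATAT

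The intergenic chain on chromosome 6, 2066 bp from the odorant receptor gene *Olfr461*, has a shorter match between its members 1 and 2. The windows are chr6:40497086-40497205 and chr6:40503798-40503917, with the exact match of 339 bases in capitals from its start. The last pair is from a chain on chromosome 14, the only chain in which every member shared a word of 24 bases with another member. Its windows are chr14:106877894-106878013, in the coding exon of the predicted gene *Gm4666*, and chr14:106881260-106881379, intergenic and partly upstream of member 3, and the capitals open an exact match of 281 bases.
Chromosome 6 chain, copy at member 1: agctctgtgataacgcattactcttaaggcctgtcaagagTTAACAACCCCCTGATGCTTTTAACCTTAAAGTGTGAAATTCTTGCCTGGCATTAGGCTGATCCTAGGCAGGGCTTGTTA
Chromosome 6 chain, copy at member 2: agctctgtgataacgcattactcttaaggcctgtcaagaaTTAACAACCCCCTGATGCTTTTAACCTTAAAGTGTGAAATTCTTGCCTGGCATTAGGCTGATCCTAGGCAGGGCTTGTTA
Chromosome 14 chain, copy at member 2: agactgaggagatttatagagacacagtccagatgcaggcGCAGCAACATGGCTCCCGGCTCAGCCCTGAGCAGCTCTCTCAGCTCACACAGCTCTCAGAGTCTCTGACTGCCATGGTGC
Chromosome 14 chain, copy at member 3: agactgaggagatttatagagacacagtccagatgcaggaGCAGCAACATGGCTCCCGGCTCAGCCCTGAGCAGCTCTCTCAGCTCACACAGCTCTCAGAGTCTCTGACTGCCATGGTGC

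The chain with the most members, 6 HNDs on chromosome 8, was shown as an example of the common case, in which no members share a word. Its member 3, 11 bp wide, is too narrow to hold a word of 24 bases. It is intergenic, and the nearest gene, 121626 bp away, is *Maf*, which encodes a basic leucine zipper transcription factor. Its members lie at chr8:118353321-118353348, chr8:118359757-118359980, chr8:118362381-118362391, chr8:118364176-118364953, chr8:118366970-118367218 and chr8:118371102-118371394. Members 1, 2, 3, 5 and 6 are printed whole, and member 4, which is 778 bp wide, by chr8:118364645-118364884. Capitals mark words of 24 bases with at least 100 copies in mm9, found in member 2, and the TTAGGG of member 4.
Chromosome 8 chain, member 1: acaaggaggttgaatctgaggctattca
Chromosome 8 chain, member 2: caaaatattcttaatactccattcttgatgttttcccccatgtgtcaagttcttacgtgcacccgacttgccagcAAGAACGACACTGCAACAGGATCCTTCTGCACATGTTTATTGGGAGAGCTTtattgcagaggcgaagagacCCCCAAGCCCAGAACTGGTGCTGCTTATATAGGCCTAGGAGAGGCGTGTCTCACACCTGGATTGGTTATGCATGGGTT
Chromosome 8 chain, member 3: tgcatgacctt
Chromosome 8 chain, member 4: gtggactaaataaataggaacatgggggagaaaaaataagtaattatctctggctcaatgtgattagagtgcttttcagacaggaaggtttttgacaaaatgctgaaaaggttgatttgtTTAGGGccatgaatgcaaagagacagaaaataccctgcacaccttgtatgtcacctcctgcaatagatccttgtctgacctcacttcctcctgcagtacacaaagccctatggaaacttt
Chromosome 8 chain, member 5: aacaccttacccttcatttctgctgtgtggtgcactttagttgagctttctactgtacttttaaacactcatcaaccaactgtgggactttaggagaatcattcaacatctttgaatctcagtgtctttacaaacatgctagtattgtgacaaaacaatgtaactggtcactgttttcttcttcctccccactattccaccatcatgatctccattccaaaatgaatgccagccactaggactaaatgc
Chromosome 8 chain, member 6: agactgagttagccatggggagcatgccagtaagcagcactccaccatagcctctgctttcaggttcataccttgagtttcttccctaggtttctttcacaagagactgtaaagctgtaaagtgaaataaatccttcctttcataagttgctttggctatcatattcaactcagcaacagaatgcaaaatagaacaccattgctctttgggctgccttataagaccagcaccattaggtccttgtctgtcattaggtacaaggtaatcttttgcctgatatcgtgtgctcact

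Member 3 of the chain in *Etv5*, a gene for an ETS transcription factor on chromosome 16, is an example of single-copy DNA. It lies in an intron at chr16:22395817-22396091, and all of its words of 50 bases, the length of a read, occurred once in mm9. The stretch with the most chains, 8 of 145, is given last, in capitals with 20 bases on either side, from a member in an intron of *Pkhd1* at chr1:20516396-20516466.
Etv5 chain, member 3: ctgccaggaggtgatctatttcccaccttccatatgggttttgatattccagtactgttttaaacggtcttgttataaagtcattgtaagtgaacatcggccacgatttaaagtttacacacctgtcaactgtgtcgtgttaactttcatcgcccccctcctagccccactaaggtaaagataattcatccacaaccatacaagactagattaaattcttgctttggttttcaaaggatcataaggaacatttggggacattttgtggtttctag
Pkhd1 chain, stretch in member 1: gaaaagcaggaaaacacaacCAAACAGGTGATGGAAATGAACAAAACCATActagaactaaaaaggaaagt

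Most chains were as short as the rule allows. Of the 145 chains, 125 or 86.2% had 3 members, 17 had 4, 2 had 5 and 1 had 6. The members made up 3.86% of the autosomal HNDs. A further 1942 HNDs lay in chains of 2, and 9498 were single, with no other HND within the limit. The median span was 9941 bp (quartiles 7209 and 13069 bp), and spans ran from 1956 bp for a chain at *Hddc2* on chromosome 10 to 28224 bp for the chain in *St3gal4*. Together the spans came to 1.57 Mb, and the members covered a median of 17.9% of a span.

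Members differed in width within a chain. Their median width was 458 bp (quartiles 220 and 878.5 bp, range 5 to 12904 bp). Whether the narrowest members are whole peaks or parts of wider WT peaks cannot be told from the list and was not tested. Without HNDs under 200 bp, 78 chains with 243 members remained. HNDs in chains of 2 had a median of 423 bp and single HNDs of 415 bp, and the median of the members was above that of single HNDs on 12 of 18 autosomes with chains. Both ends of the range were more filled among members. HNDs under 100 bp made up 8.71% of members (6.46 to 11.6%), 6.54% of HNDs in chains of 2 and 4.43% of single HNDs (4.04 to 4.87%). Those of at least 2000 bp made up 5.23% of members (3.54 to 7.66%) and 2.62% of single HNDs (2.32 to 2.96%). Within a chain the widest member was a median of 5.43 times as wide as the narrowest, and in 84 chains it alone held more than 50% of the covered bases. Inner members had a median width of 446 bp (n = 169) and end members of 461.5 bp (n = 290).

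**Figure D1:**
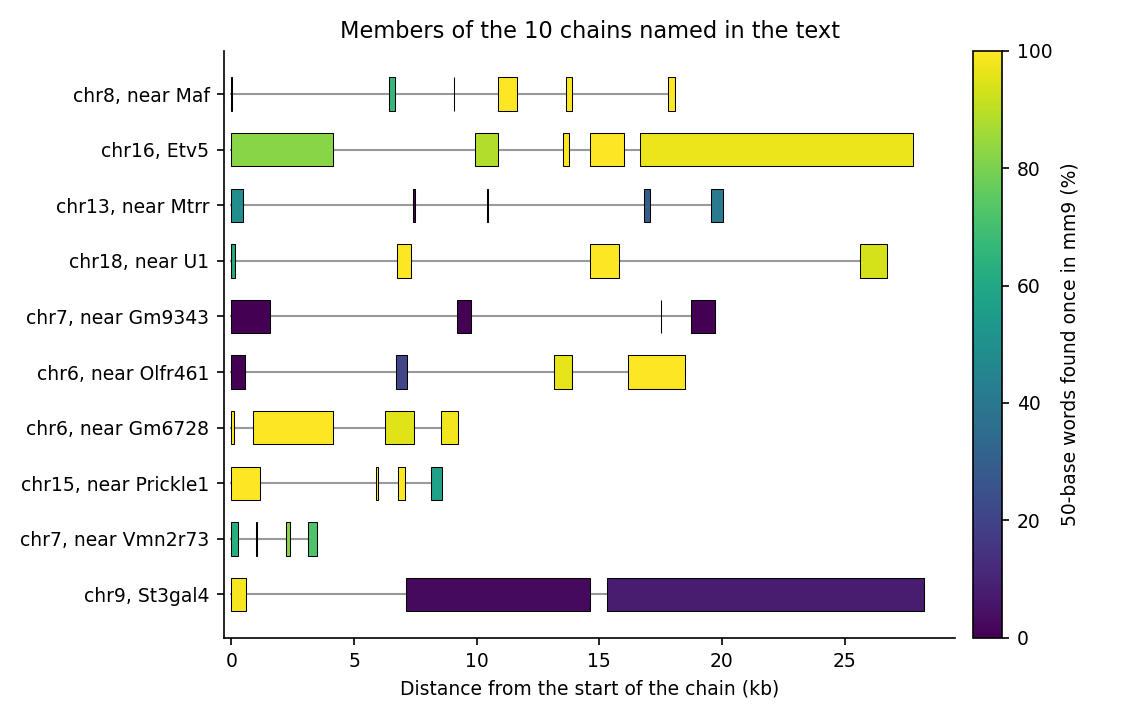
Maps of the 10 chains named by the rule, with the distance from the start of the chain in kb on the x axis and the chains, by chromosome and overlapped or nearest gene, on the y axis. Boxes are members drawn to scale and coloured by the percentage of their 50-base words that occur once in mm9. The chains in *St3gal4* and *Etv5* hold the widest members, 12904 and 11121 bp.

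The map of the named chains shows how much chains can differ in the share of the span that their members cover. The 6 members on chromosome 8 covered 1583 bp, or 8.76% of a span of 18074 bp, with widths from 11 to 778 bp. The 5 members in *Etv5* covered 17883 bp, or 64.3% of a span of 27794 bp, and 3 of them overlapped exons. The other chain of 5, on chromosome 13 and 210200 bp from *Mtrr*, which encodes methionine synthase reductase, had members of 71 to 497 bp that covered 6.85% of its span. The chain in *St3gal4* had 3 members that covered 20979 bp, or 74.3% of its span. The third longest span, 26710 bp on chromosome 18, held 4 members of 158 to 1184 bp, and its nearest annotated gene was a copy of the small nuclear RNA U1, 162112 bp away.

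The chains with the most members per kb among those of at least 4 members were much shorter. The densest spanned 3510 bp on chromosome 7, with 4 members of 30 to 406 bp and gaps of 731 to 1174 bp, or 1.14 members per kb, and lay 12257 bp from the pheromone receptor gene *Vmn2r73*. The next spanned 8594 bp on chromosome 15, 80869 bp from *Prickle1*, a planar cell polarity gene, with 0.465 members per kb. A chain on chromosome 6, 11420 bp from *Gm6728*, followed with 0.433 members per kb, and its 4 members covered 56.8% of 9245 bp.

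Per kb of distance, gaps between neighbouring members were most frequent below 1000 bp. The median of the 314 gaps was 3222 bp (quartiles 1097 and 6389 bp). No gap was below 638 bp, which was also the smallest gap among the 13092 pairs of neighbours in the whole list, sex chromosomes included. Gaps from 638 bp to under 1000 bp numbered 71 or 22.6%, that is 196 gaps per kb of distance, against 47.0 per kb from 1000 to under 2000 bp and 20.0 to 28.0 per kb beyond. The 971 gaps of chains of 2 were spread alike, with a median of 3195 bp (quartiles 1092 and 6567 bp) and 22.8% below 1000 bp. In 62 chains at least 1 gap was under 1000 bp, in 7 chains every gap was, and in 55 chains every gap was over 2000 bp.

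**Figure D2:**
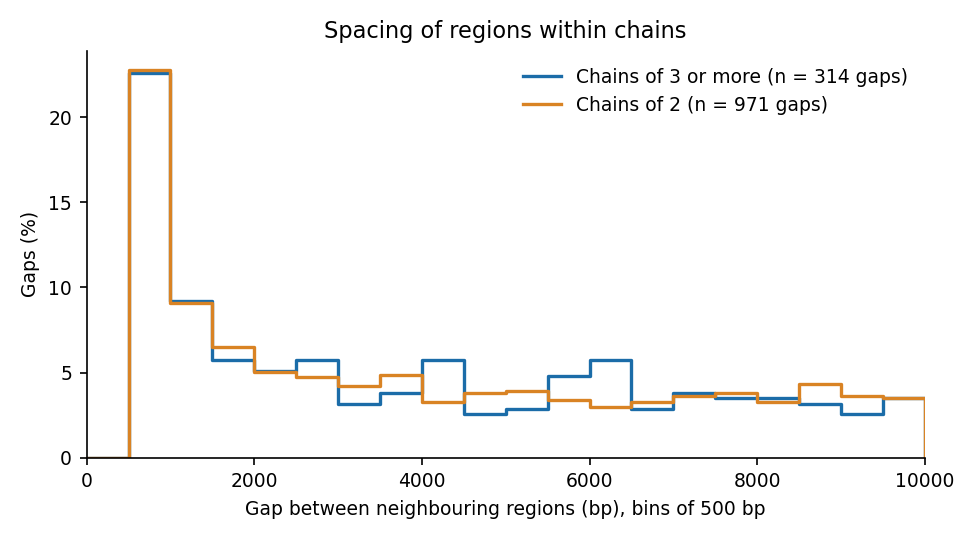
Distribution of gaps in bins of 0.5 kb, as the percentage of gaps (y axis) by gap in bp (x axis), for 314 gaps in chains of 3 or more and 971 gaps in chains of 2. Both lines peak in the bin that ends at 1000 bp and run at similar heights from there to the limit of 10000 bp.

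Spacing within a chain was seldom even. In the 125 chains of 3, the larger gap was a median of 2.39 times the smaller, and in 39 of them the ratio was under 1.5. By the rule, no other HND lies within 10000 bp of a chain. The nearest HND outside, on either side, was a median of 53646 bp away, from 10311 to 675466 bp. Of the chains, 21 had another HND within 20000 bp. For 12 chains, another chain ended within 1 Mb before the start. The closest were a pair on chromosome 6, at 12865 bp, of which the first is the dense chain near *Gm6728* and the second has 2 members in that gene.

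Neighbouring members seldom shared exact sequence, and diverged copies were not searched for. An exact word of 24 bases, read on either strand and left out if it repeats a unit of 6 bases or fewer, was common to 9 of the 314 pairs of neighbouring members, or 2.87% (95% Wilson interval 1.52 to 5.36%). Among neighbours in chains of 2 it was common to 21 of 971 pairs, or 2.16% (1.42 to 3.28%), and among autosomal neighbours over 10000 bp apart to 252 of 10595, or 2.38% (2.11 to 2.69%). The 3 intervals overlap. The 9 pairs lay on 8 autosomes. By gap, 1 of 71 pairs under 1000 bp shared a word, 1 of 47 from 1000 to under 2000 bp, 3 of 56 up to 4000 bp, 1 of 50 up to 6000 bp, 3 of 50 up to 8000 bp and 0 of 40 beyond, where 8 of 143 pairs in chains of 2 did. These counts are too small to order the gaps. Where the narrower member was at least 0.5 kb wide, 3 of 67 pairs or 4.48% shared a word, against 93 of 1895 or 4.91% of the distant pairs.

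**Figure D3:**
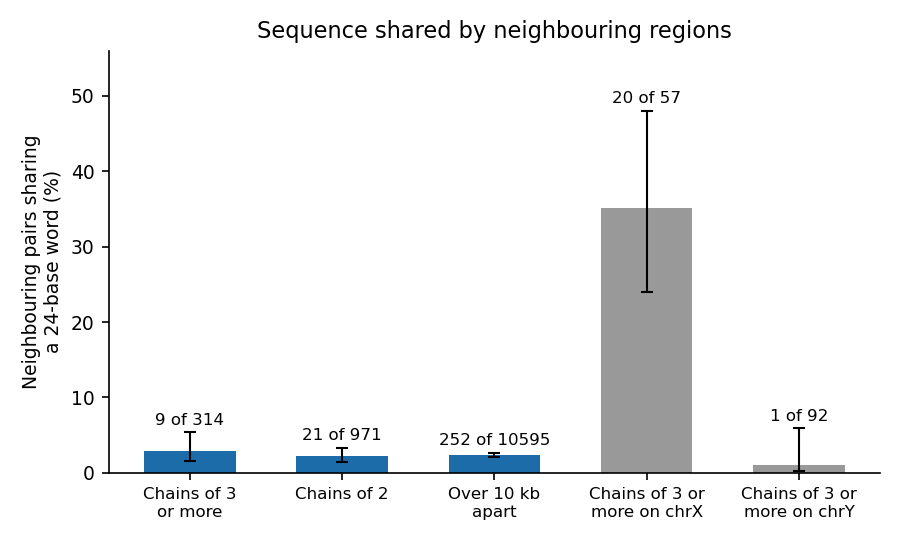
Percentage of neighbouring pairs that share an exact 24-base word (y axis) for autosomal chains of 3 or more, chains of 2 and neighbours over 10 kb apart, and for chains of 3 or more on chromosomes X and Y in grey. Bars are percentages with 95% Wilson intervals and the numbers of pairs, and the autosomal bars stand at 2.87, 2.16 and 2.38%.

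Over all 512 pairs within chains, neighbours or not, 10 shared a word, and these fell in 8 of the 145 chains (5.52%, 2.82 to 10.5%). In 0 chains was a word present in every member, and 18 of 459 members or 3.92% shared a word with another member of their own chain. A member narrower than 24 bp, such as member 3 of the chromosome 7 chain, cannot hold a word, so both counts are limited by width. By contrast, 196 members or 42.7% (38.3 to 47.3%) shared a word with a member of some other chain. Each pair of chains offers many more pairs of members, and per pair the shares were 33 of 6992 pairs from different chains of the same chromosome, or 0.472%, and 478 of 97607 pairs from different chromosomes, or 0.490%. Members of the same chain that are not neighbours shared a word in 1 of 198 pairs, or 0.505% (0.0892 to 2.80%). That interval holds both shares between chains. Higher than both lay the intervals for neighbours, 2.87% (1.52 to 5.36%), and for all 512 pairs within chains, 1.95% (1.06 to 3.56%). The 512 pairs include the neighbours. Pairs of the same chain are not independent, so these intervals are no test. Neighbours over 10000 bp apart, at 2.38%, and in chains of 2, at 2.16%, also lay above both shares between chains.

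The 9 sharing neighbours were of different kinds. The longest run of shared words was 24 to 1880 bases, with a median of 94, and 8 of the 9 pairs matched in the same orientation. In 7 pairs at least 1 of the shared words had under 100 copies in mm9. The 2 members in *St3gal4* shared 2577 distinct words. The run of 1880 bases was part of an exact match of 1920 bases, which lies inside both members, and the words they shared had a median of 7 copies in mm9. The pair on chromosome 10 matched by 48 bases in opposite orientation, in words with 8800 copies or more. A pair on chromosome 11 shared a single word, which had 173 copies.

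The chromosome 7 chain near *Gm9343* had the highest share of member bases in shared words among chains of at least 4 members, 59.4%. All 572 bases of its member 2 were found in member 1, 8751 bp away, and 363 bases of member 4 in member 1, 17503 bp away. Followed in the genome, both matches grew to the same 2706 bases, so that the printed stretch occurs in 3 copies at nearly even steps. The words of its members had at most 12 copies, and none of its members had a 50-base word that occurred once. The chromosome 6 chain near *Olfr461* followed with 20.0%, and its 2 sharing members lie 6712 bp apart by their match. No other chain of at least 4 members shared a word. On chromosome 14, all 94 bases of member 1 were found in member 2 and 230 bases of member 3 in member 2, and 45.9% of the member bases were in shared words.

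Repetition within a member was examined in the same way. A word that recurred within the same HND was found in 27 of 459 members, or 5.88% (4.07 to 8.42%), in 6.28% of HNDs in chains of 2 and in 8.35% of single HNDs (7.81 to 8.92%). At least 50% of the bases lay in such words in 7 members, or 1.53%, against 1.77% of single HNDs. Members 2 and 3 in *St3gal4* led with 97.2% and 96.3% of their bases. In member 3 the most common distance between successive copies was 1242 bp, and in member 2 it was 2515 bp, close to the length of a pair of such units. Member 2 held 6 TTAGGG and 6 CCCTAA, and member 3 held 10 TTAGGG and 11 CCCTAA. The TTAGGG recurred at a median step of 1233 bp in member 2 and 1237 bp in member 3. In every unit with both hexamers, TTAGGG began 42 bases after CCCTAA, as in the sequences printed for these members. Only 2.35% and 8.02% of the 50-base words starting in these members occurred once in mm9. Member 1, which ends 6555 bp before member 2 on the plus strand, had 98.8%.

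Members were poorer in many-copy sequence than single HNDs. A 24-base word with at least 100 copies in mm9 started in 267 of 459 members, or 58.2% (53.6 to 62.6%), in 64.5% of HNDs in chains of 2 (62.3 to 66.6%) and in 73.2% of single HNDs (72.3 to 74.1%). The share was lower in members than in single HNDs on 14 of 18 autosomes and higher on 4. With at least 1000 copies the shares were 33.3%, 40.6% and 48.3%. The order was the same within each group of widths. Among HNDs under 200 bp the shares were 40.2% of members (31.2 to 49.9%), 56.8% of HNDs in chains of 2 and 67.7% of single HNDs (65.5 to 69.7%). From 200 bp to under 0.5 kb they were 57.2%, 62.0% and 73.6%, and from 0.5 to under 1 kb 61.2%, 65.7% and 73.1%. At 1000 bp or more they came closer, with 72 of 96 members (65.5 to 82.6%), 78.0% of HNDs in chains of 2 and 79.5% of single HNDs (77.4 to 81.5%).

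**Figure D4:**
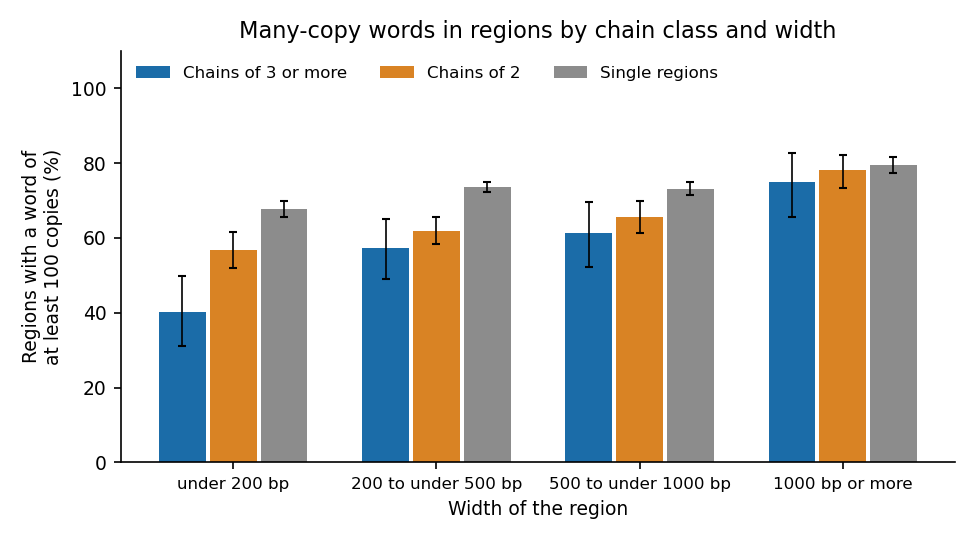
Percentage of HNDs with a 24-base word of at least 100 copies in mm9 (y axis) by width (x axis) for chains of 3 or more, chains of 2 and single HNDs. Bars are percentages with 95% Wilson intervals, and below 1000 bp the members of chains of 3 or more stand lowest in each group.

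Many-copy words were unevenly spread within chains. In 39 chains every member had such a word, in 13 chains no member had, and in the other 93 some members had and others had not. Counted over bases, 13.1% of the 24-base words starting in members had at least 100 copies, against 12.2% in the gaps, 10.2% in the 10 kb on either side of the chains and 21.0% in single HNDs. The words were diverse. Of 284320 distinct words in the members, 275019 or 96.7% occurred in a single chain. The most widespread were found in 8 chains, and the longest run of these, the stretch of 31 bases printed from *Pkhd1*, occurred on 7 autosomes, with 9837 to 10352 copies of its words in mm9.

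Reads were kept only where they mapped uniquely, so the uniqueness of the sequence was set beside the chains. Of the words of 50 bases, those found once in mm9 made up 73.1% in members, 79.7% in the gaps and 83.3% in the 10-kb flanks, and 74.7% in single HNDs. These are shares of all bases, and the 20979 bp covered in *St3gal4* had 8.49%. Counted per HND the order of members and single HNDs was the other way, as at least 90% of the words occurred once in 56.4% of members (51.9 to 60.9%) and in 48.9% of single HNDs (47.9 to 49.9%). Members were below their flanks on 15 of 18 autosomes but in 78 of 145 chains, and gaps were below flanks on 11 autosomes and in 75 chains. Short gaps were less unique than long ones, with 72.6% in gaps under 1000 bp and 80.3% in those of 4000 bp or more. Of the 314 gaps, 57 had under 50% of such words and 9 had none, and no gap contained an unknown base. Counted per chain, the gaps were less unique than the members in 65 of 145 chains. Members without any such word numbered 41, or 8.93% (6.65 to 11.9%), in 27 chains, close to the 8.74% of single HNDs. In 25 chains every word of the members occurred once. Whether the number of reads that can be placed in a gap splits a wider H3K9me3 domain into members was not tested, since the list holds no signal.

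TTAGGG, searched on both strands, was found in 107 members, or 23.3% (19.7 to 27.4%), against 20.1% of all autosomal HNDs (19.4 to 20.8%) and 19.8% of single HNDs. It occurred more than once in 33 members, or 7.19% (5.16 to 9.92%), against 4.13% of single HNDs (3.75 to 4.55%). The shares in this paragraph were not split by width. HNDs of at least 2000 bp made up 5.23% of members and 2.62% of single HNDs. The share with TTAGGG was higher in members than in single HNDs on 11 autosomes and lower on 7. At least 1 member carried it in 78 chains, and every member did in 2. The G-quadruplex pattern, 4 runs of at least 3 G with loops of 1 to 7 bases on either strand, was found in 42 members, or 9.15% (6.84 to 12.1%), against 6.73% of all autosomal HNDs and 6.62% of single HNDs (6.14 to 7.14%). It was present in 37 chains, and in 5 of them in 2 or more members, among them the chains in *St3gal4* and *Etv5*. Base composition differed little. Members had 44.9% G+C, against 45.3% in chains of 2, 44.7% in single HNDs, 42.4% in the gaps and 42.8% in the flanks.

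Chains lay mostly between genes. In the GENCODE M1 annotation of mm9, 50 of 145 chains, or 34.5% (27.2 to 42.5%), overlapped a gene with their span, 42 a protein-coding gene, and 25 lay whole within a gene. The other 95 chains were a median of 22118 bp from the nearest gene, from 34 to 871965 bp. Of the members, 112 or 24.4% (20.7 to 28.5%) overlapped a gene, against 30.8% of HNDs in chains of 2 and 2942 of 9498 single HNDs (30.1 to 31.9%), a lower share than that of single HNDs on 12 of 18 autosomes. By position, 347 members were intergenic, 86 lay in introns, 15 touched a coding exon, 7 a UTR and 4 another exon. Exons were overlapped by 26 members, or 5.66% (3.89 to 8.17%), against 5.87% of HNDs in chains of 2 (4.91 to 7.01%) and 4.20% of single HNDs (3.82 to 4.62%). Members outside genes were a median of 22543 bp from the nearest gene and single HNDs 36510 bp.

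The spans overlapped 55 genes, of which 42 were protein-coding, 5 were pseudogenes and 2 were lincRNAs. The 22 protein-coding genes that held a whole chain had a median length of 298 kb, and only a gene longer than the span can hold one. *Etv5* was overlapped by 5 members and led the list. With 4 members each followed *Odz2*, a teneurin gene, *Fstl4*, a follistatin-like gene, *Irf2*, an interferon regulatory factor gene, the solute carrier gene *Slc7a14* and *1700012B07Rik*. In each of *Odz2*, *Fstl4* and *Irf2* the 4 members lay in introns, while 2 of the members in *Slc7a14* reached coding exons. Among the genes with 3 members, the longest were *Sgcz*, a sarcoglycan gene, *Ptprt*, a receptor tyrosine phosphatase gene, and *Erc2*, a gene of the presynaptic active zone.

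*L1td1* and *Xcr1* were singled out after their values were seen, since their members were wide and reached exons. *L1td1*, which encodes a protein related to the RNA-binding protein of L1 elements and is expressed in ESCs, was overlapped by 3 members of 1121, 1404 and 4777 bp on chromosome 4, of which the latter pair reached coding exons. Their 50-base words were nearly all unique, with 98.3 to 99.6%. The chain at *Xcr1*, a chemokine receptor gene on chromosome 9, had 4 members that covered 12315 bp of 17171 bp. Its member 4, 3535 bp wide and outside the gene, had 0% of words that occur once, while the members in the gene had 75.7 to 100%.

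Gene families were rarely overlapped by members, as by autosomal HNDs in general. Of the 23 families looked up, 3 were overlapped by members. The zinc finger gene *Zfp560* held a whole chain of 3 in its introns, 0.654% of members against 0.555% of all autosomal HNDs. In its members 1 and 2 the words with at least 100 copies made up 93.9% and 75.3%, and over its 3 members together 83.5%. The share in member 3 is not given here. The vomeronasal receptor gene *Vmn2r35* and the lectin receptor gene *Clec4a4* were each overlapped by 1 member, 0.218% of members, against 0.202% of all autosomal HNDs for vomeronasal receptors and 0.0336% for lectin receptors. The histone gene *Hist1h2al* lay in a gap of a chain on chromosome 13, with no member over it. As the nearest gene, overlapped genes included, a zinc finger gene stood at 5 chains and a vomeronasal receptor at 3. An olfactory receptor, a histone, a lectin receptor and a cytochrome P450 gene, *Cyp3a41b*, each stood at 1. Among the zinc finger genes is *Zscan4c*, a gene known from 2-cell embryos. The 3 members near *Zscan4c*, 13439 bp away, had at least 82.8% many-copy words each. Olfactory receptors, with 1243 annotated genes, were overlapped by 0 members and 6 autosomal HNDs, and genes of the H3K9 methylation machinery by 0 members and 1 autosomal HND.

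Chains were unevenly distributed over the autosomes. Chromosome 1 had 18 chains, chromosome 11 had 16 and chromosome 14 had 14, together 48 of the 145. Chromosome 19 had none, with 245 HNDs, and chromosomes 2, 12, 16 and 18 had 3 each. By share, 6.14% of the HNDs of chromosome 11 were in chains, 5.93% on chromosome 13 and 1.30% on chromosome 2, with a median of 3.14% over the 19 autosomes. These shares rest on few chains and carry no interval, since HNDs enter a chain 3 or more at a time. Chromosome 11 also had the most HNDs per Mb, 6.95, and chromosome 2 the fewest, 3.80. Per Mb of chromosome there were 0.131 chains on chromosome 11 and 0.0586 over all autosomes.

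**Figure D5:**
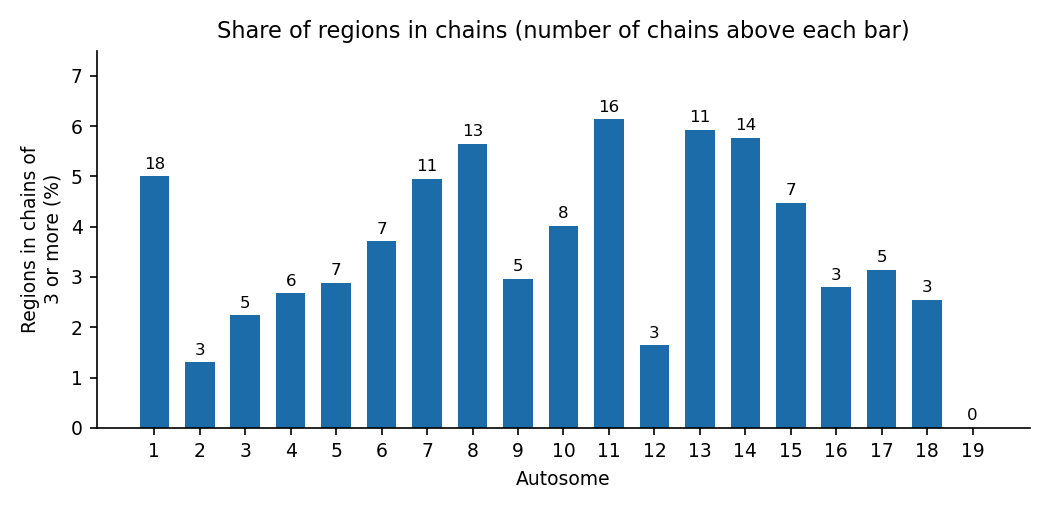
Percentage of the HNDs of each autosome that lie in chains of 3 or more (y axis) by autosome (x axis). The number of chains is written above each bar, from 0 on chromosome 19 to 18 on chromosome 1.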

How the data were processed

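The H3K9me3 data of WT and *Atrx* KO ESCs were processed by the authors. Their notes give 50-bp single-end reads mapped to mm9 with Bowtie2, uniquely mappable reads kept, broad MACS2 peaks against input, and bedtools to keep WT peaks absent in KO. They deposited 1 pooled list with 3 columns, chromosome, start and end in bp. Tool versions are not given in the sources used here.

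From this list and mm9, exact copy numbers of 24- and 50-base words were taken on both strands of chromosomes 1 to 19, X and Y. A shared word lay whole within both regions, and a word counted for copies started in the region. Genes were from GENCODE M1, with any base in common as overlap. Repeat-masked bases were not used, because the mm9 sequence at hand has none marked. The chaining and word searches were checked on simulated data.

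Members and lists were chosen with earlier results of these data known. Named were the 3 chains with most members, longest spans, most members per kb and most shared bases (the last pair of lists among chains of at least 4 members, where only 2 chains shared any), genes at or nearest to them, the 10 genes overlapped by most members (ties by length, 1 not reported here) and 23 gene families. The sequences printed, and the order of tied genes, were chosen after the values were seen. Python 3.11.15, numpy 2.4.6, pandas 2.3.3, scipy 1.17.1, numba 0.67.0 and matplotlib 3.10.9 were used.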

Additional observations from a re-analysis of the deposited data

Results flagged for a closer look

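The chains reported are autosomal, and chains on X and Y were singled out as signal on chromosomes outside those analysed. Chromosome X carried 22 chains with 79 of its 1040 HNDs, or 7.60%. Its neighbouring members shared a 24-base word in 20 of 57 pairs, or 35.1%, and these pairs fell in 7 of the 22 chains. Chromosome Y carried 28 chains with 120 of its 174 HNDs, or 69.0%, and 1 of its 92 pairs of neighbouring members shared a word. The longest chains had 7 members on X and 10 on Y. Of the 15.9 Mb of Y in mm9, 2.70 Mb are known bases. The cause of these values was not tested.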

How the results depend on the processing

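For 8 results, 59 values under alternatives were computed, of which 32 were labelled the same. Numbers of chains and regions were labelled so within 1.5 times, and shares within the Wilson interval. Medians had a narrower limit, which is not given here, so that a width of 524.5 bp against 458 bp was labelled as moved. With gaps of up to 5000 bp there were 59 chains with 186 regions, a median span of 6535 bp and a median gap of 1551 bp. With up to 20000 bp there were 299 chains with 970 regions, a span of 18405 bp and a gap of 6288 bp. Chains of at least 4 regions numbered 20 with 84 regions, a span of 18414.5 bp, a gap of 4063.5 bp and a width of 524.5 bp. Chains of at least 2 numbered 1116 with 2401 regions and a span of 5201 bp. Joining regions up to 1000 bp apart left 90 chains with 285 regions, a span of 11855 bp and a gap of 4367 bp. Without regions under 200 bp there were 78 chains with 243 regions, a span of 10916.5 bp and a width of 603 bp. The causes of these shifts were not tested. The share of neighbouring members with a common word ran from 1.57% to 7.82% over 13 alternatives. The highest value was with chromosome X added, and the others lay within the interval given. For this share, adding X, chains of at least 4 or 2, distance between centres and regions extended by 150 bp were alternatives chosen after seeing the data. Members with a many-copy word were 33.3% with at least 1000 copies and 63.3% among members of at least 200 bp. The latter, and other gaps for this share, were also chosen after seeing the data. The cause was not tested. No paired analysis was possible because the pooled list gives nothing per replicate, and leaving out each replicate gave no value for the same reason. The depth behind single HNDs is unknown.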
